A study of Mus musculus with 6 samples.

Results

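To examine how activation of human *SRY* bears on insulin signalling in the liver, all probes of 10 genes of this pathway were read from bead arrays of neonatal liver: *Insr*, *Irs1*, *Irs2*, *Pik3r1*, *Akt1*, *Akt2*, *Gsk3b*, *Foxo1*, *Ppp1r3b* and *Ppp1r3c*. Members were taken by the gene symbol written in the table, which gave 13 of 25697 probes for 10 of 18138 symbols. Livers came from male FVB mice at postnatal day 6 (P6), with 3 hSRY-ON and 3 hSRY-OFF animals. The study's methods place a single copy of the *Signalox-hSRY* transgene at the *H11* locus in an FVB/N background and define hSRY-OFF mice as carrying it unrecombined. They also name littermates that lack the transgene as control littermates, and the labels of these arrays say hSRY-OFF. In the unrecombined transgene the ubiquitous CAG promoter drove the red fluorescent protein DsRed2 and *SRY* was silent. In hSRY-ON mice Cre recombinase from the oocyte of a *Ddx4-Cre* mother had removed DsRed2 in the early embryo and placed FLAG-tagged human *SRY* with EGFP under CAG, and the animals chosen did not inherit *Ddx4-Cre*. The groups therefore also differed in their fluorescent protein and, if the hSRY-OFF animals carried the unrecombined transgene, in the activating cross. Neither difference can be told apart from *SRY* here. The study also reports minimal suckling, a lack of milk in the stomach and slower growth in hSRY-ON pups. The part of feeding and growth in the results below was not tested.

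In hepatocytes, insulin binds its receptor, a tyrosine kinase encoded by *Insr*, which phosphorylates the docking proteins Irs1 and Irs2. These recruit PI3-kinase through its regulatory subunit (*Pik3r1*), and the lipid it makes leads to activation of the kinases Akt1 and Akt2. Akt inhibits Gsk3b, a kinase that holds glycogen synthase inactive, and sends the transcription factor Foxo1 out of the nucleus, so that genes of fasting such as *Igfbp1* are switched off. Ppp1r3b and Ppp1r3c carry protein phosphatase 1 to glycogen, where it activates glycogen synthase. Much of this control is by phosphorylation, which RNA measurements do not show.

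Of the 10 members, 6 were measured above background and 2 differed between the groups. *Ppp1r3c* was 4.81-fold lower and *Gsk3b* 1.63-fold higher in hSRY-ON livers. *Irs2* and *Foxo1* were high in 2 of the 3 hSRY-ON livers and at or near control level in the remaining liver, *Pik3r1* was lower in all 3 without passing the threshold, and *Ppp1r3b* was not separated. *Insr*, *Irs1*, *Akt1* and *Akt2* were below the detection limit on all arrays. A difference was called at an adjusted p under 0.05 in limma, with Benjamini-Hochberg adjustment over 10734 probes that were above background on 3 or more of the 6 arrays (detection p under 0.01). At this threshold 2 of the 7 tested member probes were called, 1 higher and 1 lower, against 33.1% of all tested probes (15.8% higher and 17.3% lower). The groups did not overlap at 4 of the 7 member probes, against 50% of all tested probes (5363 of 10734). The median difference over the 7 probes was -0.12 and the median size of a difference 0.69 on the log2 scale, beside 0.02 and 0.34 over all tested probes.

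The arrays were of like quality, with median intensities of 147 to 165 before normalization and 40.2% to 41.9% of probes detected. Liver identity was looked at with hepatocyte markers, of which 8 of the 9 on the array were detected on at least 1 array (*Tat* was not) and 7 were tested, with 0 of 10 probes called higher and 4 lower. Their summed level was 179602 to 188034 in hSRY-OFF and 174001 to 189491 in hSRY-ON livers, sums that rest on probes near the top of the scale, such as *Ahsg* at 15.40 to 15.43. Calls among hepatocyte and other cell markers stand beside 33.1% of all tested probes called (15.8% higher and 17.3% lower). Erythroid markers (3 of 9 tested probes called higher, 0 lower) summed to 64025 to 82903 in hSRY-OFF and 81117 to 93376 in hSRY-ON livers. These ranges overlap, and *Hba-a1* was at the top of the scale on all arrays. Macrophage markers (1 of 11 higher, 4 lower, *Cd163* and *Cd5l* not detected) summed to 10316 to 13243 and 7797 to 9872, and stellate cell markers (5 of 12 higher, 4 of them *Acta2* probes, and 2 lower) to 14110 to 15926 and 23039 to 24977. In hSRY-ON livers the stellate sum rests largely on *Acta2*. Its brightest probe read 10.65 to 10.94 in hSRY-OFF and 13.12 to 13.34 in hSRY-ON livers on the log2 scale. The 2 lower stellate probes were those of *Lrat* (-1.66) and *Reln* (-0.66). Endothelial markers had 3 probes higher and 1 lower of 10, biliary markers 2 lower of 3, skeletal muscle markers 0 called of 1 in limma (0 at an unadjusted p under 0.05), and pancreas markers 1 higher of 1, with *Ins1*, *Ins2* and *Gcg* not detected. hSRY-ON replicate 3 stood apart in neutrophil markers, which summed to 95234.5 on this array, 30866 and 35805 on the other hSRY-ON arrays and 46119 to 53247 on the hSRY-OFF arrays (0 of 10 probes called in limma, and 1 at an unadjusted p under 0.05). The part of these cell types in the results below was not tested, and in whole liver fewer cells of a type and less RNA per cell cannot be told apart.

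The receptor and the docking proteins come first in the pathway. The only *Insr* probe (ILMN_2628026; gene at chr8:3150922-3279649, GRCm38.p6) read 133 to 165 intensity units over the 6 arrays with detection p-values of 0.0664 to 0.46, and the *Irs1* probe (ILMN_1248206; chr1:82233105-82291439) 138 to 161 units with 0.0514 to 0.33. Both were not well above background on any array, so no fold was given and the groups could not be compared. This says nothing of absence, since the probe for *Grb2*, a gene used by most cells, was also detected on 0 arrays.

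*Irs2* (ILMN_3144164; chr8:10984681-11008929), the other main docking protein of hepatocytes, had log2 normalized intensities of 8.03, 8.48 and 8.55 in hSRY-OFF replicates 1 to 3 and of 9.65, 10.22 and 8.07 in hSRY-ON replicates 1 to 3. hSRY-ON replicates 1 and 2 lay above every control, and replicate 3 lay within the controls. The difference of 0.96 ± 0.50 (SE, n = 3 each; 95% interval -0.22 to 2.13) was not past the threshold (limma adjusted p 0.18), and the SD was 1.11 among hSRY-ON and 0.28 among hSRY-OFF livers. Without hSRY-ON replicate 3, the array with high neutrophil markers, the difference was 1.58 with an adjusted limma p of 0.00323, and without hSRY-ON replicate 2, the highest array, it was 0.50. Over all alternatives run for this probe the adjusted p ran from 0.00323 to 0.421.

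Of PI3-kinase, the regulatory subunit gene *Pik3r1* (chr13:101680761-101768217) had 3 probes. The brightest (ILMN_3114641) read 10.20, 10.12 and 10.13 in hSRY-OFF and 9.76, 8.83 and 9.79 in hSRY-ON livers on the log2 scale. The second (ILMN_2473531) read 9.34, 9.27 and 9.19 against 8.98, 8.16 and 8.88. At both probes every hSRY-ON liver lay below every control, and hSRY-ON replicate 2 was lowest. The differences were -0.69 ± 0.25 and -0.60 ± 0.22 (SE, n = 3 each), and neither was past the threshold (limma adjusted p 0.074 and 0.0746). The brightest probe passed it without hSRY-ON replicate 3 (-0.86, adjusted p 0.0405 in limma), and without hSRY-ON replicate 2, the lowest array, the differences shrank to -0.38 and -0.34. Its adjusted p lay within a range of 0.0386 to 0.18 over its alternatives. The third probe (ILMN_3040050) was not detected on any array, with 144 to 183 intensity units.

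*Akt1* (ILMN_1213935; chr12:112653821-112674884) read 143 to 167 units with detection p-values of 0.0602 to 0.33. The 2 probes of *Akt2* (chr7:27591552-27640826), the isoform known for glucose control in liver, read 129 to 157 units with 0.165 to 0.799. No group could be compared for either kinase.

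*Gsk3b* (ILMN_2593888; chr16:38089001-38246084), the kinase that Akt inhibits, read 6.66, 6.70 and 7.01 in hSRY-OFF livers and 7.58, 7.30 and 7.60 in hSRY-ON livers on the log2 scale. Every hSRY-ON liver lay above every control, with no overlap. The difference was 0.70 ± 0.15 (SE, n = 3 each; 95% interval 0.35 to 1.06), a call at an adjusted limma p of 0.0122. Leaving out control replicate 1 or control replicate 2 ended the call (limma adjusted p 0.0576 and 0.0539), at differences of 0.63 and 0.65, within a range of 0.00297 to 0.0576 over its alternatives. With no background correction the difference was 0.37 and the call was kept. Its relative *Gsk3a* was detected on 0 arrays.

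*Foxo1* (ILMN_2656498; chr3:52268337-52350109) encodes the transcription factor that insulin restrains through Akt. It read 8.54, 8.79 and 8.53 in hSRY-OFF and 9.65, 9.26 and 8.78 in hSRY-ON livers on the log2 scale. As for *Irs2*, hSRY-ON replicates 1 and 2 lay above all controls and replicate 3 was level with the highest control. The difference of 0.61 ± 0.22 (SE, n = 3 each; 95% interval 0.09 to 1.13) was not past the threshold over all probes (limma adjusted p 0.0701). Without hSRY-ON replicate 3 it was 0.83 with an adjusted limma p of 0.00934, and without hSRY-ON replicate 1, the highest array, it was 0.40. Over its alternatives the adjusted p ran from 0.0068 to 0.183.

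The last members act on glycogen. *Ppp1r3c* (ILMN_2667091; chr19:36731731-36736604), also called protein targeting to glycogen, was the member with the widest separation. It read 11.82, 11.82 and 11.57 in hSRY-OFF livers and 10.33, 9.26 and 8.81 in hSRY-ON livers on the log2 scale, or 2781 to 4263 against 516 to 1546 intensity units before normalization. All hSRY-ON livers lay far below all controls, although they also differed among themselves (SD 0.78, against 0.15 among controls). The difference was -2.27 ± 0.35 (SE, n = 3 each; 95% interval -3.10 to -1.44), past the threshold with an adjusted limma p of 0.00356, and it ranked 174 by size among the 10734 tested probes. The call held under all 16 alternatives run for it, with differences of -2.71 to -1.87 and adjusted p-values of 0.00107 to 0.0210 in limma.

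The 250 bases upstream of the *Ppp1r3c* start in the RefSeq annotation (GRCm38.p6, chr19:36736605-36736854, minus strand) are shown 5′ to 3′ as the promoter of the member that differed most. They hold 64.4% G or C and 20 CG pairs.
Ppp1r3c: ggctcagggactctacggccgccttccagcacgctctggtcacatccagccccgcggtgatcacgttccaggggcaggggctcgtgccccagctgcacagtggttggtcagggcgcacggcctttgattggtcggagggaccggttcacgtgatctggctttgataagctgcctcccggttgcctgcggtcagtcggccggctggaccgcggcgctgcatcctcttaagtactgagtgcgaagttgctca

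*Ppp1r3b* (ILMN_2626098; chr8:35375694-35388139) encodes the glycogen-targeting subunit that is typical of liver. It was dim, at 6.23, 6.003 and 5.75 without and 6.77, 6.33 and 4.51 with *SRY* activation on the log2 scale, and it was not detected in hSRY-ON replicate 3. Replicates 1 and 2 of the hSRY-ON group were above all controls and replicate 3 was below them. The difference was -0.12 ± 0.53 (SE, n = 3 each; 95% interval -1.37 to 1.12; limma adjusted p 0.877). It turned to 0.30 with the undetected array set to its detection floor and to 0.56 without that array (adjusted p 0.0659 in limma, within 0.0659 to 0.998 over its alternatives). The log2 value of *Ppp1r3b* minus that of *Ppp1r3c* on the same array was -5.59, -5.82 and -5.82 in hSRY-OFF livers and -3.56 and -2.93 in hSRY-ON replicates 1 and 2. In hSRY-ON replicate 3 it is known only to be at most -3.04, so the groups were not compared, and these differences include the lower level of *Ppp1r3c* itself.

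**Figure D1:**
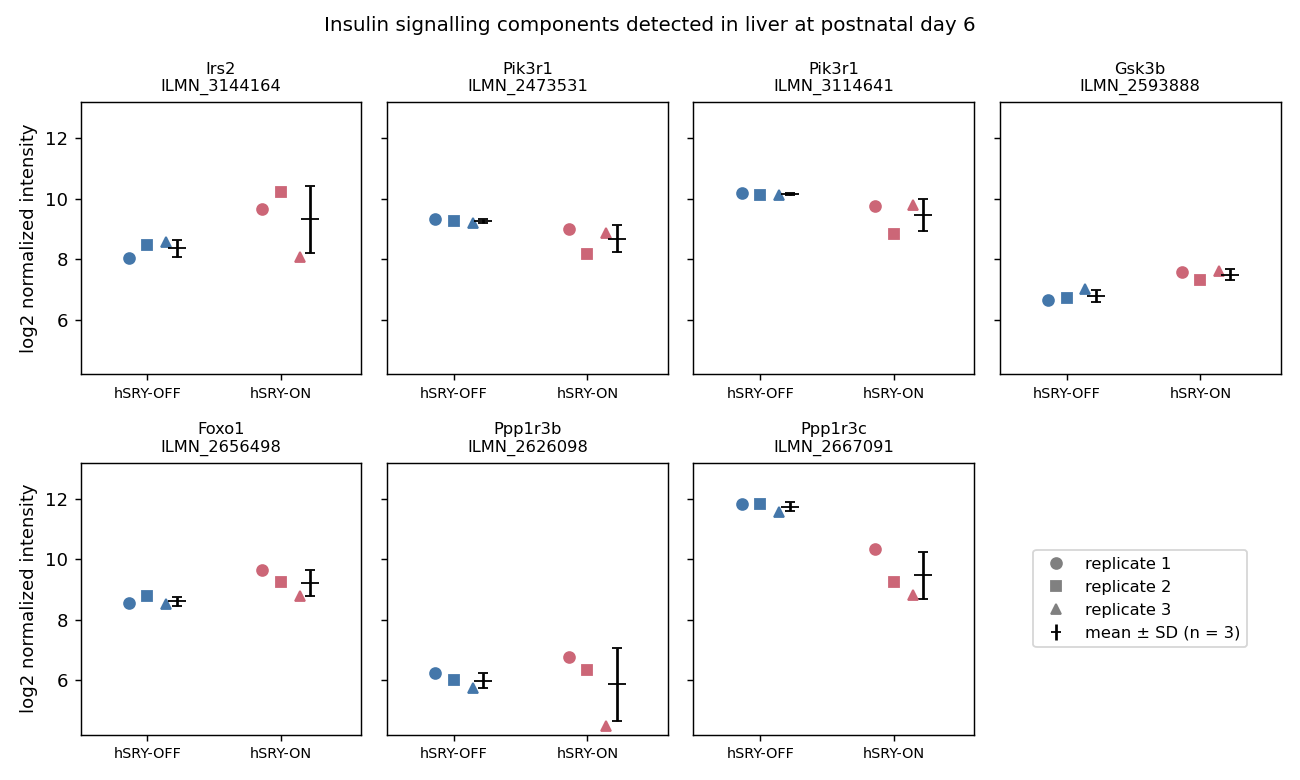
Log2 normalized intensity of the 7 tested member probes on each array, hSRY-OFF in blue and hSRY-ON in red, with the symbol marking the replicate number and black bars the mean ± SD (n = 3). *Ppp1r3c* lay at 8.81 to 10.33 in hSRY-ON against 11.57 to 11.82 in hSRY-OFF livers, while *Irs2*, *Foxo1* and *Ppp1r3b* were above all controls in hSRY-ON replicates 1 and 2 but not in replicate 3.

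**Figure D2:**
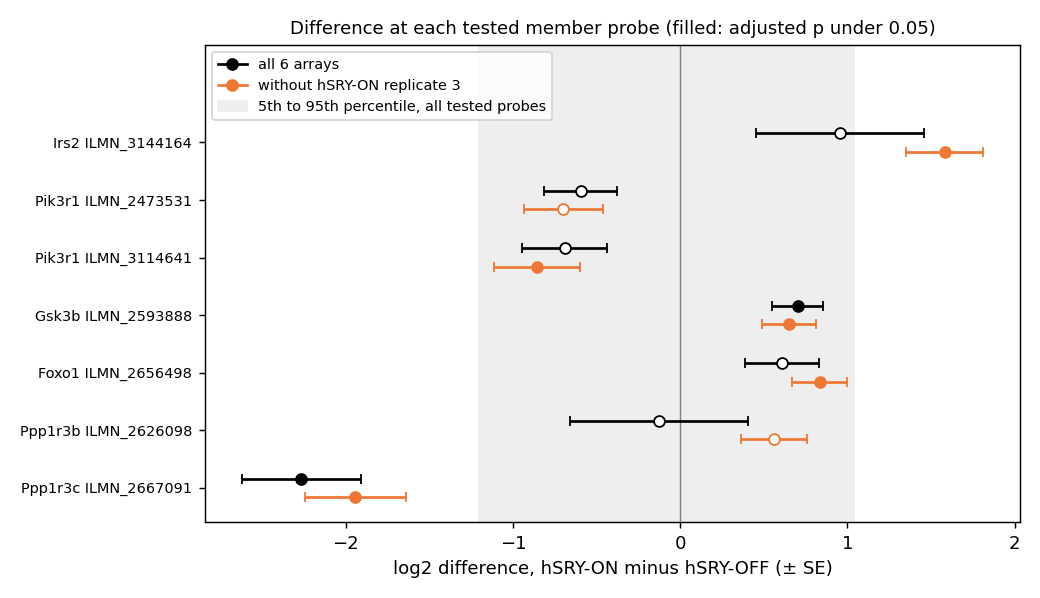
Log2 difference, hSRY-ON minus hSRY-OFF (± SE), at each tested member probe with all 6 arrays (black) and without hSRY-ON replicate 3 (orange), filled where the adjusted p was under 0.05. The grey band spans the 5th to 95th percentile of all tested probes (-1.20 to 1.04), and *Ppp1r3c* at -2.27 lay outside it.

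The other genes of the pathway were read from lists of 125 genes, of which 76 had at least 1 tested probe. Of 98 tested probes 26 were called higher and 10 lower, or 36.7% in all, beside 33.1% over the whole array, and their median log2 difference was 0.12. Among receptors and docking proteins 0 of 9 tested probes were called by limma (2 at an unadjusted p under 0.05, and 0 under each alternative run). *Igf1r*, the receptor for IGF1, read 6.12, 5.88 and 5.87 in hSRY-OFF and 6.28, 6.44 and 6.25 in hSRY-ON livers (difference 0.37 ± 0.13, SE, limma adjusted p 0.063).

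Among PI3-kinase subunits and lipid phosphatases 1 of 10 tested probes was called. *Pik3cb*, a catalytic subunit, rose by 0.40 ± 0.12 (SE, limma adjusted p 0.0445), a call that was kept only without hSRY-ON replicate 2 when arrays were left out in turn (adjusted p 0.013 to 0.149 over its alternatives). Leaving out hSRY-ON replicate 3 gave 2 probes higher and 1 lower in this list. *Pik3ca*, another catalytic subunit, was not detected. Of the genes around Akt and mTOR, 4 of 16 tested probes were called higher and 0 lower with all arrays, 4 higher and 4 lower without hSRY-ON replicate 3, and 2 higher without hSRY-OFF replicate 1 or with median scaling. *Pdpk1*, the kinase that activates Akt, rose by 0.62 ± 0.12 (SE, adjusted limma p 0.00833), and *Rheb*, the small GTPase that turns on mTOR, by 0.49 ± 0.11 (adjusted limma p 0.0131). *Ppp2ca*, a phosphatase subunit that was picked after its value was seen, was also called (0.54).

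Genes listed as inhibitors of the pathway went both ways, with 5 of 15 tested probes higher and 2 lower (4 and 4 of 14 without hSRY-ON replicate 2). *Trib3*, a pseudokinase that can bind Akt, held 3 of the 5, with fitted differences of 3.08, 3.30 and 3.86. At the first of these probes (ILMN_1244279), detected on 0 hSRY-OFF arrays, it was at least 6.44-fold higher (limma adjusted p 0.000262). That probe passed the detection filter through the hSRY-ON group alone, and its fitted difference of 3.08 was 2.34 with an offset of 50 and 1.51 with no background correction. *Socs3*, a feedback inhibitor of cytokine and insulin receptors, rose from 7.01, 6.46 and 7.01 to 7.92, 8.28 and 8.33 (1.35 ± 0.19, SE, limma adjusted p 0.00253). *Ptprf*, a receptor phosphatase, fell by 1.59 on the log2 scale, from 8.80 to 9.005 in controls to 7.09 to 7.45 with *SRY* activated (SE 0.14, adjusted limma p 0.000365). *Prkcd* (0.55) and *Ceacam1* (-0.81 at ILMN_3126609), picked after their values were seen, made up the rest. The other *Ceacam1* probe (ILMN_2683560) was not called (-0.41, limma adjusted p 0.187). *Ptpn1*, the phosphatase best known for removing phosphate from the insulin receptor, was not detected.

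Among FoxO factors and partners 2 of 9 tested probes were called higher and 1 lower. *Ppargc1a*, a coactivator of fasting genes, read 6.21, 6.60 and 7.29 in hSRY-OFF and 8.12, 9.62 and 7.47 in hSRY-ON livers (limma adjusted p 0.0449). *Sirt1*, a deacetylase, rose by 0.44 ± 0.13 (SE, adjusted limma p 0.0399) and *Foxa2*, a liver transcription factor, fell by 0.83 (SE 0.23, limma adjusted p 0.0304). All 3 hSRY-ON livers lay outside the controls at each of these probes, but the calls were near the threshold. On leaving out any array other than hSRY-ON replicate 3, limma called 0 of the 9 probes, with differences of 1.10 to 2.002 for *Ppargc1a*, 0.35 to 0.45 for *Sirt1* and -0.94 to -0.62 for *Foxa2* (5 of the 9 were under an unadjusted p of 0.05 with all arrays). With median scaling 1 probe was called higher and 1 lower. *Foxo3* was not detected.

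Of 10 tested probes of genes listed as repressed by insulin through Foxo1, 6 were called higher in hSRY-ON livers, 0 lower and 4 not called, beside 15.8% higher and 17.3% lower over all tested probes. The median log2 difference of the 10 probes was 1.25. This list was chosen with earlier results of these data known, so the counts describe it and are no test. *Angptl4*, an inhibitor of lipoprotein lipase, rose by 1.76 ± 0.15, *Apoc3*, an apolipoprotein, by 1.35 ± 0.13, and *Bcl6*, a transcriptional repressor, by 1.39 ± 0.21 (SE, limma adjusted p 0.000335, 0.000492 and 0.00339). *Igfbp1*, which binds IGFs in plasma, read 5.36, 6.33 and 6.59 in hSRY-OFF and 8.92, 9.80 and 7.34 in hSRY-ON livers. *Pdk4*, which closes the pyruvate dehydrogenase gate, and *Cited2*, both picked after their values were seen, completed the 6. *Pdk4* read 9.03, 9.55 and 8.77 in hSRY-OFF and 11.69, 12.20 and 10.54 in hSRY-ON livers. The call of *Igfbp1* (2.59 ± 0.61, SE, limma adjusted p 0.0162) was lost on leaving out hSRY-OFF replicate 1 (0.0639) or hSRY-ON replicate 1 (0.0544), within 0.00162 to 0.0639 over its alternatives. Its lowest control, replicate 1, was not detected, and with it at the detection floor the difference was 2.45. *G6pc*, the enzyme that releases glucose, was 12.93, 13.49 and 13.16 against 13.24, 13.91 and 13.51 (0.36 ± 0.22, SE, limma adjusted p 0.229), and *Pck1*, detected on 2 hSRY-ON arrays and no control, was not tested. Without hSRY-OFF replicate 1 the list had 4 probes called, and over the left-out arrays its median was 1.20 to 1.42.

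**Figure D3:**
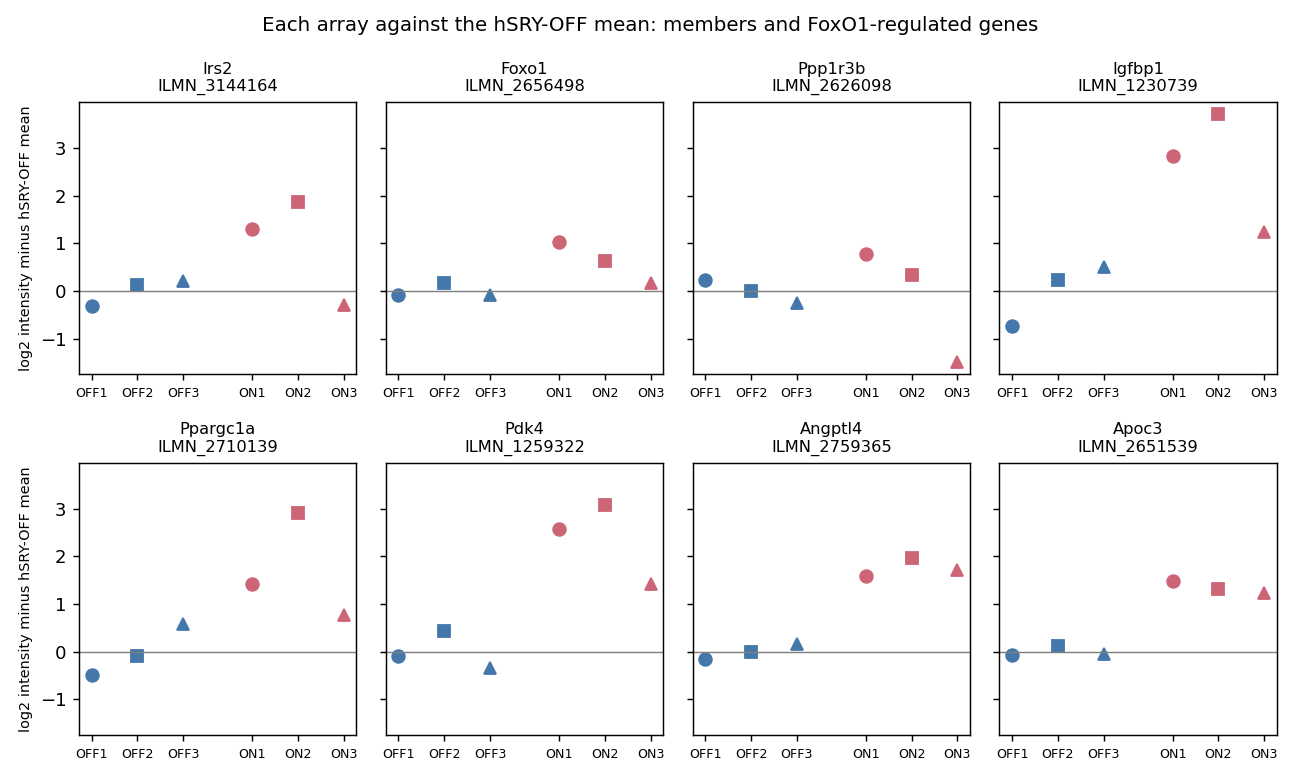
Log2 intensity of each array minus the hSRY-OFF mean for 3 members and 5 other genes, with hSRY-OFF replicates (OFF1 to OFF3) in blue and hSRY-ON replicates (ON1 to ON3) in red. The genes were picked for display. Among them hSRY-ON replicate 3 was the lowest hSRY-ON array at all panels but *Angptl4*, and it lay at or below control level for *Irs2* and *Ppp1r3b*. Over the 7 tested member probes it was lowest at 4.

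The position of hSRY-ON replicate 3 was described further after its values had been seen. It was the lowest hSRY-ON array at 7 of the 10 tested probes of the Foxo1 list and at 4 of the 7 member probes, against 36.4% of all tested probes. The same held at 5 of 9 receptor and docking probes, 8 of 15 inhibitor probes and 8 of 16 Akt and mTOR probes. In the remaining lists it was lowest at 4 of 10 PI3-kinase, 7 of 21 glycogen, 2 of 9 FoxO partner and 2 of 8 insulin-induced probes. At *Irs2*, *Igfbp1*, *Ppargc1a* and *Pdk4* replicate 2 was highest, replicate 1 next and replicate 3 lowest, an order held by 1 of the 7 member probes and 5 of the 10 probes of the Foxo1 list, beside 20.7% of all tested probes. Receptor and docking probes held this order at 4 of 9, and the remaining lists at 6.25% to 23.8%. *Foxo1* and *Ppp1r3b* were highest in replicate 1.

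FoxO-type sequences were then looked for in the 250 bases upstream of RefSeq starts, of which 8 member genes had at least 1 (13 windows). The letters searched were CAAAACA and GTAAACA on both strands (TGTTTTG and TGTTTAC), and no match to the first overlapped a match to the second. CAAAACA was found in *Irs1* and *Irs2*, in 2 of the 13 member windows (15.4%), and in *Igfbp1* and *G6pc*, in 2 of 13 windows of the Foxo1 list (15.4%), beside 5.56% of all 32851 windows. GTAAACA was found in 1 member window, that of *Akt1*, and in 0 of the 13 windows of the list, beside 3.17% of all windows. The windows are few, some belong to the same gene, and no test of these shares was run. A match is a run of letters and not a measured site. The CAAAACA matches are shown 5′ to 3′ on the strand of the gene with 20 flanking bases on each side and the match in capitals, so that the docking protein genes can be read beside genes of the Foxo1 list.
Irs2 (chr8:11008940-11008986, 37 bases upstream): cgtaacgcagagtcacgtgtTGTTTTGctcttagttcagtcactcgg
Irs1 (chr1:82291524-82291570, 111 bases upstream): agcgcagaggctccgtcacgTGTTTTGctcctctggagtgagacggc
Irs1 (chr1:82291445-82291491, 32 bases upstream): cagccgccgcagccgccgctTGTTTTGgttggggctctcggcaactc
Igfbp1 (chr11:7197659-7197705, 108 bases upstream): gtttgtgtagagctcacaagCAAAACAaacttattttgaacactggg
G6pc (chr11:101367522-101367568, 174 bases upstream): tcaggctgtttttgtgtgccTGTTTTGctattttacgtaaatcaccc
Of these genes, *Igfbp1* was called higher, *Irs2* and *G6pc* were not past the threshold and *Irs1* was not detected.

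Of 8 tested probes of genes listed as induced by insulin, 3 were called lower and 3 higher. *Srebf1*, the factor that drives lipid synthesis, was at probe ILMN_2792089 above background on all 3 control arrays and 0 hSRY-ON arrays. There it was at least 5.42-fold lower (limma adjusted p 0.000219). This probe passed the detection filter through the hSRY-OFF group alone, and its fitted log2 difference of -2.88 was -2.13 with an offset of 50 and -1.34 with no background correction. The other *Srebf1* probe (ILMN_2696876) was not detected on any array. *Mlxipl*, the carbohydrate-responsive factor, fell by 1.70 (SE 0.11, adjusted limma p 0.000151), and *Acly*, picked after its value was seen, was the remaining lower call (-0.61). All 3 higher probes were those of *Insig2*, with differences of 1.29, 1.48 and 2.49. *Insig2* holds back the processing of sterol regulatory factors, and its liver transcript is known to be lowered by insulin, so it does not do what the name of the list says. Counted without it, after the values were seen, 3 of 5 tested probes were called lower, beside 17.3% of all tested probes. That 0 were then called higher was fixed by setting *Insig2* aside. The lower calls also include *Srebf1*, which passed the detection filter through the hSRY-OFF group alone. This count is therefore no test. Leaving out any hSRY-OFF array took *Srebf1* below the detection filter, and of the 7 probes then tested 1, that of *Mlxipl*, was called lower.

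Enzymes of glycogen and subunits of its phosphatase also went both ways, with 5 of 21 tested probes higher and 4 lower. *Gys2*, the liver glycogen synthase on which Gsk3b and the Ppp1r3 subunits act, read 9.28, 9.59 and 9.47 in hSRY-OFF and 9.31, 9.996 and 8.87 in hSRY-ON livers, a difference of -0.05 ± 0.27 (SE; limma adjusted p 0.901). *Pygl*, the liver phosphorylase that breaks glycogen down, fell at both probes, by 0.50 and 0.77 (SE 0.13 and 0.12, limma adjusted p 0.0228 and 0.00356). *Pygb*, the brain phosphorylase, fell by 1.07 (SE 0.18, adjusted limma p 0.00463). *Pgm2*, a phosphoglucomutase, rose by 0.68 ± 0.12 (SE, limma adjusted p 0.00607). The other calls, named after their values were seen, were *Ugp2* (0.61), *Ppp1r2* (0.52) and both tested probes of the phosphatase subunit *Ppp1cb* (0.47 and 0.54) among the higher ones and 1 of 3 probes of *Phka2* (-0.50) among the lower ones. With median scaling the counts were 1 higher and 4 lower, without hSRY-OFF replicate 1 they were 1 and 2, and without hSRY-OFF replicate 2 or replicate 3 they were 2 and 2.

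**Figure D4:**
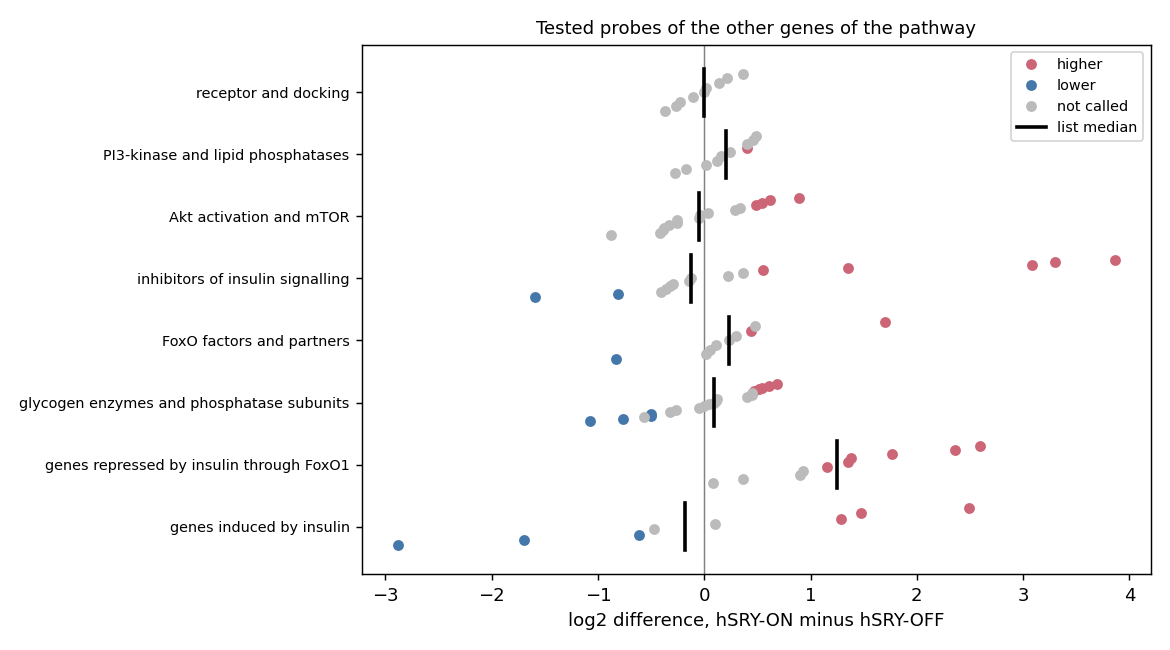
Log2 difference, hSRY-ON minus hSRY-OFF, at each tested probe of the 8 lists of other pathway genes, in red where called higher, in blue where called lower and in grey otherwise, with the black bar at the list median. The median of the genes listed as repressed by insulin through Foxo1 was 1.25, with 0 of the 10 probes of that list called lower. The lists were chosen with earlier results of these data known.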

How the data were processed

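The authors put total RNA of 6 livers on Illumina MouseRef-8 bead arrays. The deposited table held a mean bead intensity per probe, neither background-subtracted nor normalized, and a deposited detection p-value per array (0 unmatched columns). Scanner settings were not given in the sources used here. The study names TCC, a count package, for its own normalization, which was not used here because the values are no counts.

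Background was removed with normexp from the detection p-values (limma 3.58.1 in R 4.3.3, function nec, offset 16), followed by quantile normalization and log2. The offset shrinks differences of dim probes. Probes detected at p under 0.01 on at least 3 of 6 arrays were tested with lmFit and eBayes, with no covariates and Benjamini-Hochberg adjustment over all of them. Summed marker levels are on the normalized linear scale less the offset. Where a group did not detect a called probe, a bound against the lowest detected signal of each array is given as "at least N-fold". Where only some arrays detected it, the fitted value is kept. Of 18138 symbols, 2927 were matched through an older name.

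Members and lists were chosen with earlier results of these data known. Named were all member probes, 12 fixed pathway genes and up to 3 called genes per list with the smallest p, and results of some genes under this rule are not reported here. In 5 simulations with known changes, 11864 to 11868 probes were tested, and 60.6% of changes of 1 and 92.8% of changes of 2 on the log2 scale were called. The simulations changed far fewer probes than were called here and capped the spread of a probe below that of *Irs2*, *Ppp1r3b* and *Ppp1r3c*. Their shares therefore do not give the share of changes found in these data. P-values set a group difference against the spread between samples, moderated across probes by eBayes. The study calls these samples biological replicates. Same-numbered replicates were not treated as pairs. With 3 arrays per group their number limits the precision.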

Additional observations from a re-analysis of the deposited data

How the results depend on the processing

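The calls of *Ppp1r3c* and *Gsk3b* were kept, and no other member gene was called, with no background correction, an offset of 50, median scaling, a trimmed mean of M values, the other detection filters, a variance trend and the replicate block. With array weights 5 member probes of 5 genes were called, and leaving out 1 array at a time gave 1 to 5 probes and 1 to 5 genes. An adjusted p under 0.01 left 1 member probe, 1 member gene, 20 pathway probes and 1665 probes in all. Over the left-out arrays 1821 to 3947 probes were called in all and 19 to 40 of the pathway lists, both lowest without hSRY-OFF replicate 1 (without hSRY-OFF replicate 2, 1959 and 23, and 23 of the lists without hSRY-OFF replicate 3). The sign of *Ppp1r3b* turned with array weights (0.30), and its differences ran from -0.57 to 0.56 over the left-out arrays. *Gys2* turned with array weights (0.0057) and ran from -0.35 to 0.21 over the left-out arrays. The difference of *Gsk3b* was 0.37 under both settings that left the background in. The planned permutation test of *Ppp1r3b* minus *Ppp1r3c* was not read, because *Ppp1r3b* has only an upper bound on hSRY-ON replicate 3. The causes were not tested.

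Deviations of same-numbered arrays correlated at 0.02, 0.10 and 0.05, so the numbers were not taken as pairs. With the replicate block 3210 probes were called in all, 33 of the pathway lists and 2 of the members. The differences of *Irs1* against *Irs2* and *Akt1* against *Akt2* were not run because *Irs1*, *Akt1* and *Akt2* had no tested probe. Of 422 values for 27 other named probes under the alternatives, 376 kept direction and side of the threshold, 43 were no longer called and 3 changed sign.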
